A study of Astyanax mexicanus with 20 samples.

Results

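Integrins are cell-surface receptors built from an alpha and a beta chain, and laminins are basement-membrane proteins built from an alpha, a beta and a gamma chain. Their genes were followed in skeletal muscle of the Mexican tetra, *Astyanax mexicanus*, after muscle injury. Members were the rows of the deposited table whose gene name begins, in either case, with itga or itgb, or with lama, lamb or lamc and a chain number. This rule found 44 of 27420 genes. They were 30 integrin chains, 12 laminin chains and 2 genes that match by name only: itgbl1, which encodes a secreted protein related to integrin beta chains, and itgb1bp1, which encodes a protein that binds the cytoplasmic tail of beta1. Of the 44, 38 reached 1 TPM (a length-adjusted share of a library's transcripts) in at least 2 libraries and were tested. No row is named lama2, lamb3 or itgal, and those genes were not analysed here.

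The study compared the cave form with the surface form of this fish after saline (PBS) or cardiotoxin, a snake venom toxin that destroys muscle fibres, was injected. Its title names the question, how cavefish muscle regenerates after injury. The 20 libraries form 8 groups. The cave form ("troglobitic cavefish") gave 3 saline controls, 3 libraries at 1 day post injury (dpi), 2 at 7 dpi and 2 at 14 dpi. The surface form ("river-dwelling surface fish") gave 3 saline controls, 3 libraries at 1 dpi, 2 at 7 dpi and 2 at 14 dpi. All 20 carry the same treatment note, free running darkness, and no label gives age, sex, the cave of origin or the day on which controls were collected. A text of the series describes sampling around a 24-hour cycle with 3 fish per timepoint, which the sample labels do not mention and which the 2 libraries at 7 and 14 dpi do not match. No label ties a library to a fish, so p-values measure the spread between libraries, which may be technical.

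Laminin chains assemble into a sheet around each muscle fibre, around vessels and under epithelia. Integrins bind laminin, collagen, fibronectin or proteins on other cells outside the cell and link them through talin and kindlin to actin inside. In muscle the pair of alpha7 and beta1 anchors fibres to laminin, white blood cells use the beta2 pairs to leave vessels and to take up debris, and epithelial cells use alpha6 with beta4 to hold on to laminin.

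Library depth is unknown because TPM sums to a fixed total. Levels below are scaled TPM, TPM divided by a factor that centres each library on 9467 broadly expressed genes. The factors ran from 0.593 to 1.92 and moved with the groups. Without scaling the median of all genes shifted by 0.57 (log2) in surface fish at 1 dpi, by 0.40 in cave fish at 1 dpi and by 0.39 between cave and surface fish at 14 dpi, so every rise and fall below is relative to that median. Levels, overlaps and calls below are on the scaled values, and a member's unscaled value is added where scaling decides its call or its sign. The summed level of 9 rows for skeletal muscle fibre markers lay between 48297 and 576522 scaled TPM. Markers of skin were uneven: their sum was 5181 in cave 1 dpi replicate 3, 1464 in surface 1 dpi replicate 2 and 1383 in cave control replicate 2, against at most 808 in the other libraries. A gene was called when limma's p-value, adjusted over all 16884 genes tested, was under 0.05, and changes are differences of log2(scaled TPM + 1).

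**Figure D1:**
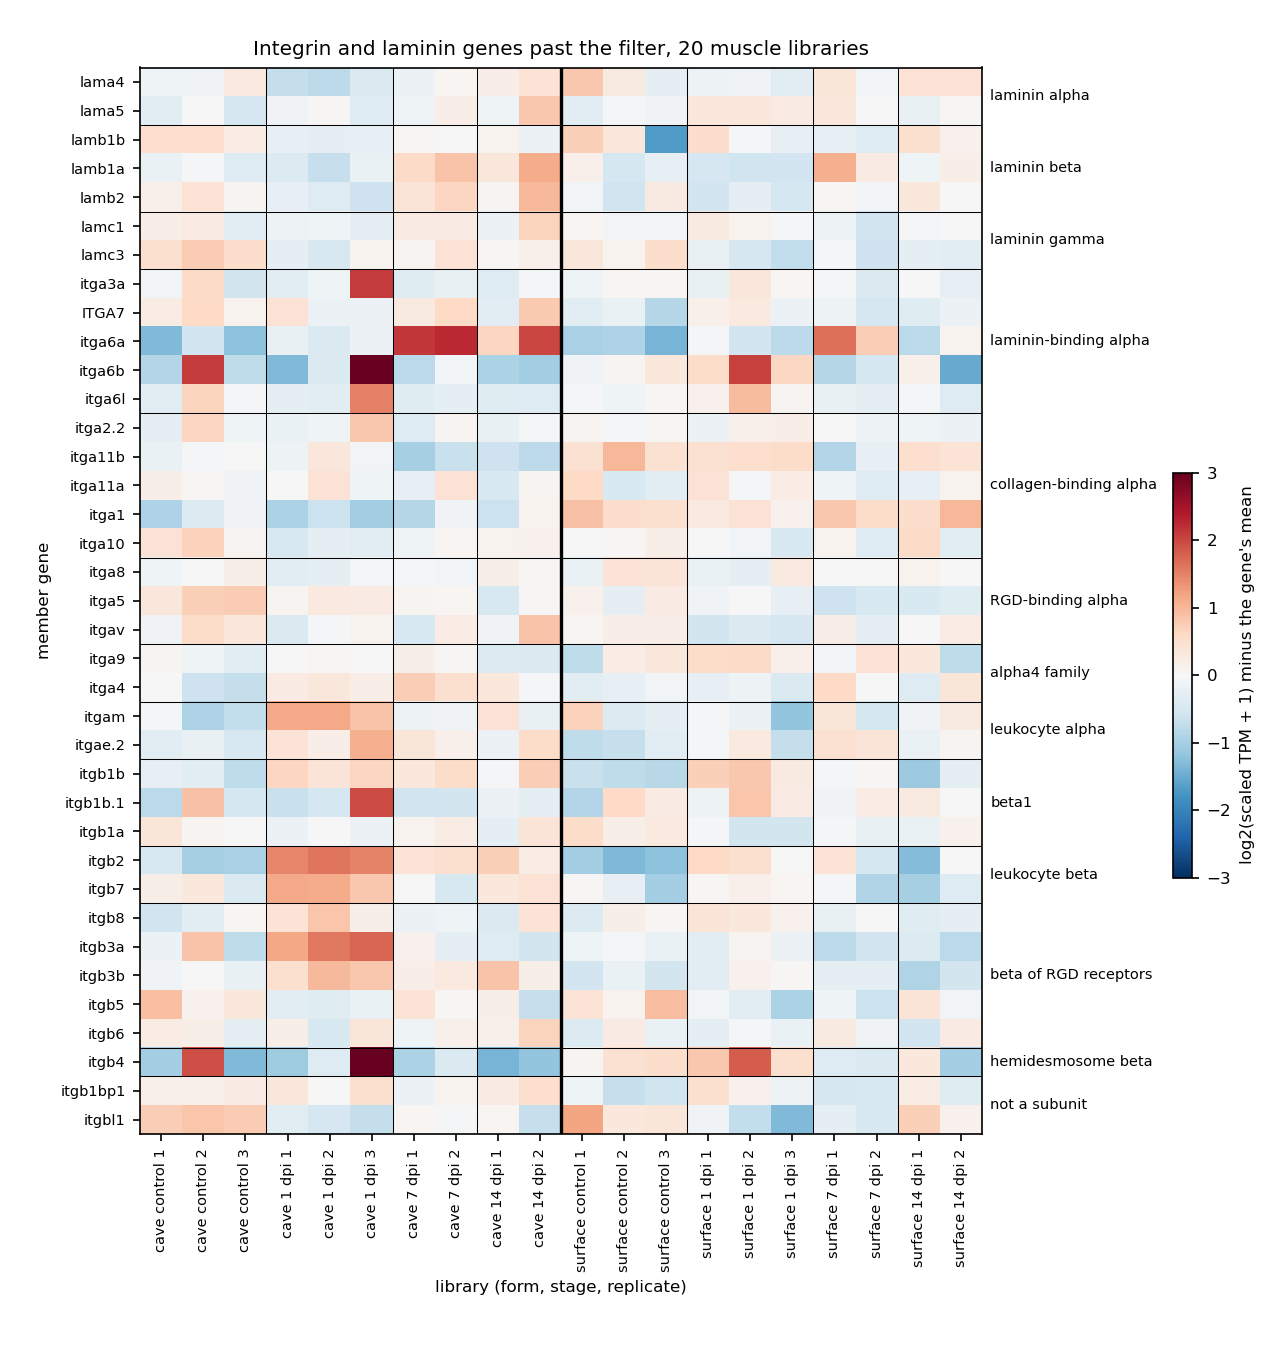
Tested genes (37 rows, grouped by role) in the 20 libraries (columns, cave form left of the black line). Colour gives log2(scaled TPM + 1) minus the gene's mean over all libraries, with the scale ending at -3 and 3. itga6a is highest at 7 dpi in both forms, and itga6b and itgb4 stand out in cave control 2, cave 1 dpi 3 and surface 1 dpi 2.

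Changes after injury reached itga6a for alpha6, itgb1b for beta1 and the integrins of white blood cells. The count of members called was higher in cave fish at each stage on the scaled values, though not at 1 and 7 dpi with unscaled TPM, and no member was called in the test of the difference between the forms. At 1 dpi 14 of 38 were called in cave fish, where 24.8% of all genes tested were called. They were 10 rises, against 15.7% of all genes, and 4 falls, against 9.07%. In surface fish at 1 dpi 7 were called, where 14.8% of all genes were called: 3 rises, against 8.35% of all genes, and 4 falls, against 6.41%. At 7 dpi 5 were called in cave fish, against 7.39% of all genes, with 4 up (5.37% of all genes) and 1 down (2.02%). In surface fish 2 were called at 7 dpi, against 4.6%, with 1 up (3.11%) and 1 down (1.49%). At 14 dpi 6 were called in cave fish, against 10.1% of all genes, with 4 up (6.22%) and 2 down (3.87%). At 14 dpi in surface fish limma called 0 of 38 and 0% of all genes. At an unadjusted p under 0.05 there were 2 members (5.26%), against 9.43% of all genes. Stages of a form share their controls, so these counts are not independent of each other.

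The split between rises and falls, and the order of the forms, depended on the scaling. With unscaled TPM 12 rose and 1 fell in cave fish at 1 dpi, where 25.5% of all genes rose and 1.3% fell. In surface fish at 1 dpi 15 rose and 1 fell, where 34.3% of all genes rose and 1.13% fell. At 7 dpi 2 rose and 0 fell in cave fish (2.91% of all genes rose), and 3 rose and 0 fell in surface fish (4.01%). At 14 dpi 1 rose and 1 fell in cave fish, against 1.46% and 1.61% of all genes. Some groups that do not overlap on the scaled values overlapped with unscaled TPM. In cave fish at 1 dpi this held for lamb2, itga10, lamb1b, itgb5, itga5 and itgb1a. In surface fish at 1 dpi it held for itgb1a, itgb5, itgav and itga1. In surface fish, control and 1 dpi libraries with the same number correlated weakly in their deviations from their group means (0.108 to 0.235 over 3 pairs). A fit of those 6 libraries with the replicate number as a block called 1 member and 184 of all genes. The block fitted to all libraries called 9 members, 4 up and 5 down, and 2494 of all genes. The count in cave fish at 1 dpi was 9 without cave 1 dpi replicate 1. In cave fish at 7 dpi it was 3, 2 and 1 without cave control replicates 1, 2 and 3, and 1 without either cave 7 dpi library. In cave fish at 14 dpi it was 3, 2 and 1 without cave control replicates 1, 2 and 3, and 3 without cave 14 dpi replicate 2. In surface fish at 7 dpi it was 0 without replicate 1 of that stage and 4 without replicate 2. Without the 3 libraries highest in skin markers, a choice made after seeing the data, the cave counts were 8 at 1 dpi, 2 at 7 dpi and 2 at 14 dpi. Calls over all genes fell as well in that fit, to 2448, 573 and 569, from 4191, 1247 and 1703 with all 20 libraries.

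**Figure D2:**
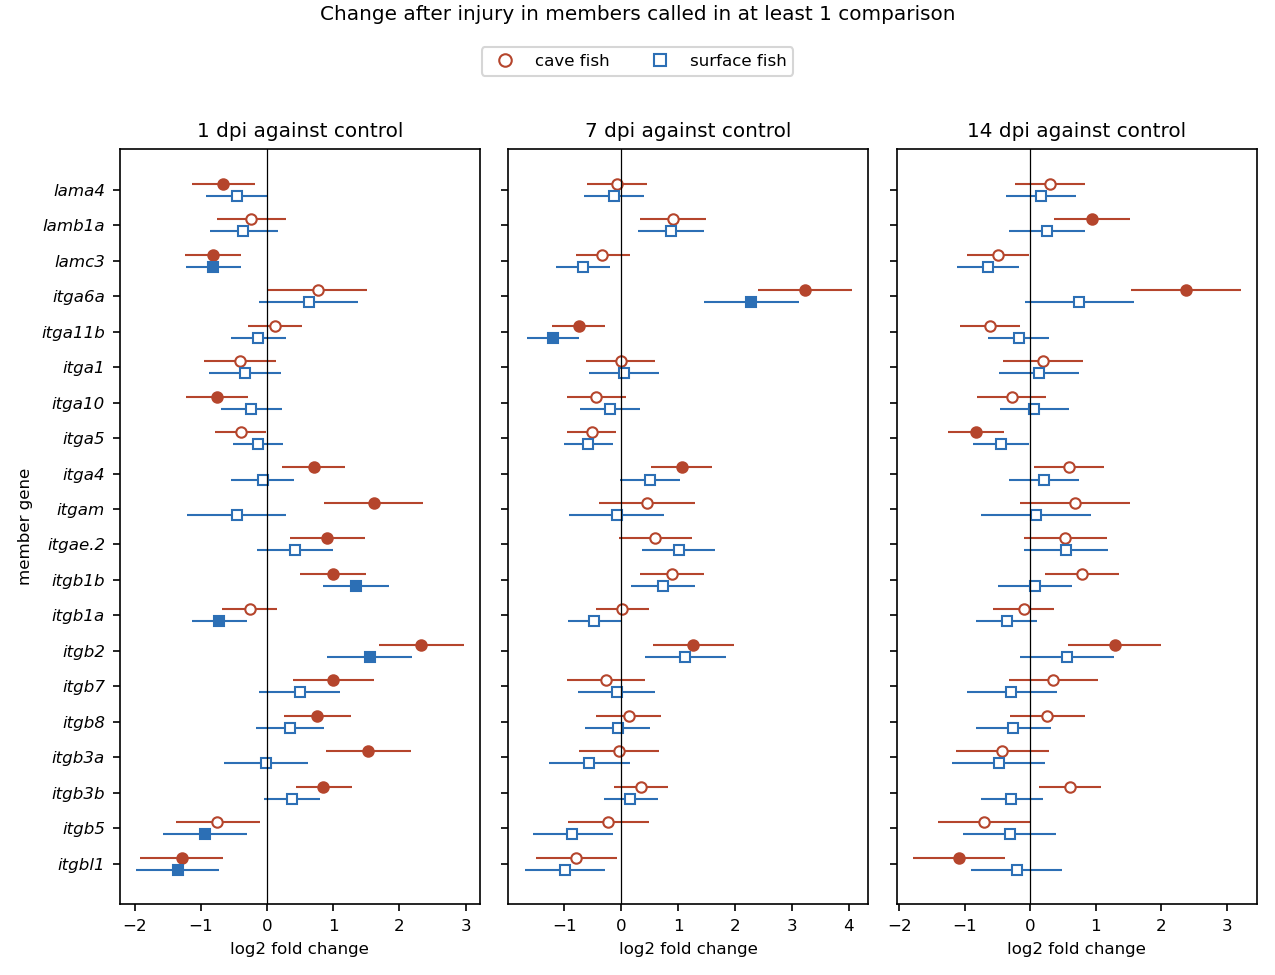
Log2 fold change of scaled TPM in injured against control muscle at 1, 7 and 14 dpi for 20 genes called in at least 1 comparison (rows). Circles are cave fish, squares surface fish, bars 95% confidence intervals of the limma fit, and filled symbols adjusted p under 0.05. itga6a at 7 dpi lies farthest to the right, and in the 1 dpi panel itgam and itgb3a have the widest gaps between the forms.

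Of the laminin chains, lamc1 encodes gamma1, the gamma chain of most laminins, and was called in no comparison on the scaled values. It was at 9.62, 10.1 and 6.52 in controls, 7.45, 7.499 and 6.65 at 1 dpi, 10.1 and 10.1 at 7 dpi, and 7.23 and 13.9 at 14 dpi in cave fish. lamc1 in surface fish was at 8.74, 7.81 and 7.86 in controls, 10.2, 9.09 and 7.93 at 1 dpi, 7.38 and 5.198 at 7 dpi, and 8.07 and 8.202 at 14 dpi. Its surface change at 1 dpi was 0.14 (SE 0.20, adjusted p = 0.72), but 0.84 (adjusted p = 0.0339), a call, with unscaled TPM. lamc3, which encodes gamma3, fell in both forms at 1 dpi. In cave fish it was at 3.02, 3.93 and 3.19 in controls, 1.36, 1.07 and 2.12 at 1 dpi, 2.09 and 2.92 at 7 dpi, and 1.99 and 2.22 at 14 dpi. lamc3 in surface fish was at 2.69, 2.101 and 3.18 in controls, 1.47, 1.06 and 0.746 at 1 dpi, 1.77 and 0.889 at 7 dpi, and 1.35 and 1.301 at 14 dpi. The 1 dpi libraries of each form were all below their controls. The change was -0.82 (SE 0.20, adjusted p = 0.00758) in cave fish and -0.81 (SE 0.20, adjusted p = 0.0135) in surface fish, but -0.49 and -0.35 with unscaled TPM, neither of which was called. These are bulk samples, in which fewer cells of a type and less RNA per cell cannot be told apart. The surface call was also lost without surface control replicate 3 (adjusted p = 0.05) or surface 1 dpi replicate 3 (adjusted p = 0.0596), and in the block fit of those 2 groups (adjusted p = 0.123).

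Beta1 laminin is encoded by a pair of paralogues, lamb1a and lamb1b, of which lamb1a was higher late after injury. In cave fish lamb1a was at 4.05, 4.62 and 3.44 in controls, 3.32, 2.56 and 4.01 at 1 dpi, 7.55 and 9.44 at 7 dpi, and 6.36 and 11.5 at 14 dpi. lamb1a in surface fish was at 5.47, 2.99 and 3.86 in controls, 3.05, 2.82 and 2.86 at 1 dpi, 11.1 and 5.91 at 7 dpi, and 4.297 and 5.64 at 14 dpi. Every 7 and 14 dpi cave library was above every cave control, and both surface 7 dpi libraries were above the surface controls. Only the cave change at 14 dpi was called, at 0.94 (SE 0.27, adjusted p = 0.0417), beside 0.91 (SE 0.27, adjusted p = 0.0532) in cave fish and 0.87 (SE 0.27, adjusted p = 0.0817) in surface fish at 7 dpi. That call was lost in 10 of 20 fits that left out 1 library, with adjusted p from 0.0501 to 0.354: each of the cave controls, surface 1 dpi libraries and cave 7 dpi libraries, cave 1 dpi replicate 1 and cave 14 dpi replicate 2. It was also lost with unscaled TPM, at 0.81 (adjusted p = 0.178). Without the 3 libraries highest in skin markers the adjusted p was 0.0812. lamb1b was called in no comparison on the scaled values.

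lamb1b was at 39.3, 39.7 and 32.4 in controls, 22.9, 22.2 and 23.1 at 1 dpi, 28.5 and 27.9 at 7 dpi, and 29.9 and 24.1 at 14 dpi in cave fish. lamb1b in surface fish was at 45.5, 34.8 and 7.73 in controls, 39.8, 26.7 and 22.97 at 1 dpi, 23.2 and 20.9 at 7 dpi, and 39.1 and 30.2 at 14 dpi. Surface control replicate 3 was the lowest of the 20 libraries. The difference of lamb1b in surface fish at 1 dpi was 0.30 (SE 0.42, adjusted p = 0.702), but 1.06 (adjusted p = 0.0379), a call, with unscaled TPM. lamb2 encodes beta2, a chain concentrated at nerve-muscle contacts in mammals. Its median, 51.4 scaled TPM over the 20 libraries, was the highest of the named laminin chains. In cave fish lamb2 was at 55.98, 68.7 and 53.8 in controls, 42.5, 38.1 and 32.2 at 1 dpi, 66.00 and 79.2 at 7 dpi, and 53.7 and 102 at 14 dpi. lamb2 in surface fish was at 47.9, 33.03 and 60.9 in controls, 33.8, 40.9 and 34.5 at 1 dpi, 52.98 and 47.6 at 7 dpi, and 64.2 and 49.7 at 14 dpi. The 3 cave 1 dpi libraries were below the 3 cave controls, a change of -0.65 (SE 0.24, adjusted p = 0.0616) that was not called. When cave controls and cave 1 dpi libraries alone were fitted, lamb1b and lamb2 were called.

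lama4 encodes the alpha4 chain of vessel and fat basement membranes in mammals. It was the most abundant of the laminin alpha chains that have a named row, which leaves out lama2. In cave fish lama4 was at 16.4, 16.6 and 22.3 in controls, 10.6, 10.1 and 13.1 at 1 dpi, 15.99 and 18.8 at 7 dpi, and 20.96 and 24.4 at 14 dpi. lama4 in surface fish was at 32.4, 21.8 and 14.8 in controls, 16.3, 16.7 and 14.2 at 1 dpi, 23.3 and 17.01 at 7 dpi, and 24.5 and 24.8 at 14 dpi. All 3 cave 1 dpi libraries lay below all 3 cave controls, a change of -0.66 (SE 0.22, adjusted p = 0.0427). This call was lost in 12 of 20 fits that left out 1 library (adjusted p 0.0501 to 0.161), among them each of the 6 cave control and cave 1 dpi libraries, 2 cave 7 dpi, 2 surface 1 dpi, 1 surface control and 1 surface 14 dpi libraries. With unscaled TPM the change was -0.17 (adjusted p = 0.664), and without the 3 libraries highest in skin markers it was -0.82 (adjusted p = 0.081). At the same stage 2 of 9 endothelial marker rows fell (sum 83.8 to 98.9 scaled TPM, against 119 to 134 in cave controls), 5 of 8 Schwann cell rows fell (74.2 to 88.6, against 156 to 190.2), and 0 of 7 fibroblast rows were called (931 to 1153, against 1852 to 2400). The rows for col1a1a and col1a2 made up most of the fibroblast sum. One mbpb row was at 0 throughout, and the part of these cell types in the lama4 value was not tested. lama5, for the alpha5 chain, was low. It was at 1.203, 1.73 and 0.922 in controls, 1.53, 1.79 and 1.09 at 1 dpi, 1.51 and 2.11 at 7 dpi, and 1.500 and 3.73 at 14 dpi in cave fish. lama5 in surface fish was at 1.15, 1.66 and 1.55 in controls, 2.37, 2.37 and 2.21 at 1 dpi, 2.39 and 1.72 at 7 dpi, and 1.31 and 1.79 at 14 dpi, and no comparison on the scaled values called it. Its surface change at 1 dpi was 0.44 (SE 0.22, adjusted p = 0.197), and 0.96 (adjusted p = 0.0184), a call, with unscaled TPM.

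**Figure D3:**
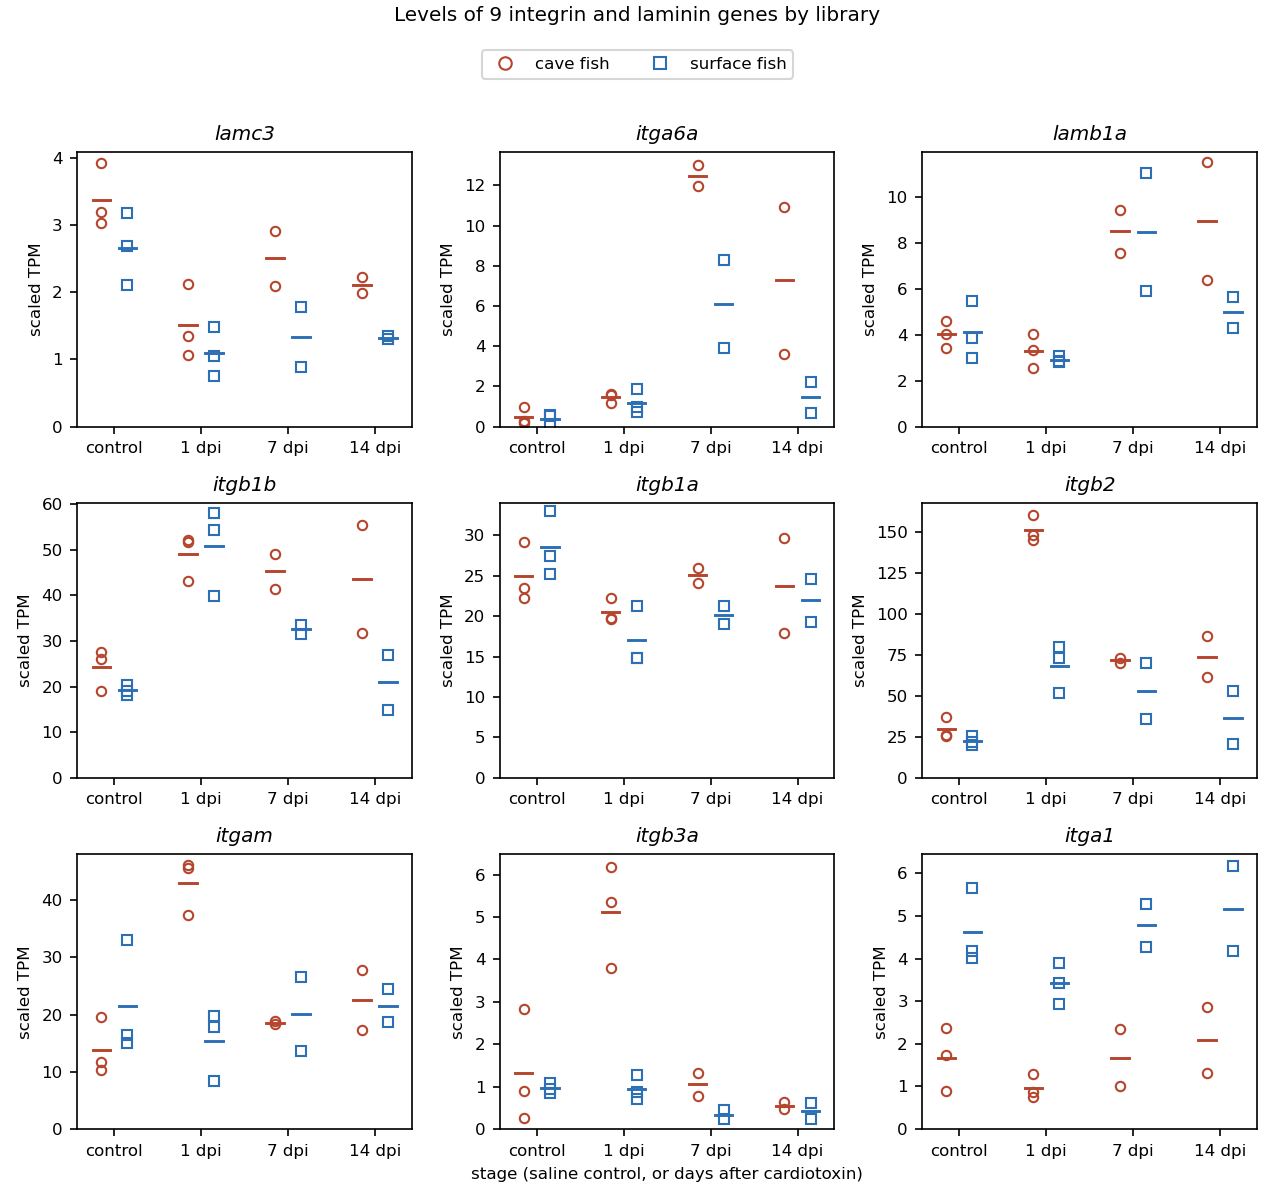
Scaled TPM of 9 genes in each library by stage, with cave fish as circles and surface fish as squares; short lines are group means. lamc3 is below its controls at 1 dpi in both forms, itga6a peaks at 7 dpi, itgb2 and itgam are highest in the cave 1 dpi libraries, and the 10 cave libraries are below the 10 surface libraries for itga1.

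Of the laminin-binding alpha chains, itga6a, a gene for alpha6, rose at 7 dpi in both forms. In cave fish itga6a was at 0.176, 0.991 and 0.264 in controls, 1.55, 1.19 and 1.62 at 1 dpi, 11.97 and 13.02 at 7 dpi, and 3.63 and 10.9 at 14 dpi. itga6a in surface fish was at 0.511, 0.561 and 0.122 in controls, 1.85, 0.978 and 0.736 at 1 dpi, 8.27 and 3.93 at 7 dpi, and 0.691 and 2.21 at 14 dpi. Both 7 dpi libraries of each form were above every other library of that form at control and 1 dpi. The rise was 3.23 (SE 0.39, adjusted p = 0.000309) in cave fish and 2.29 (SE 0.39, adjusted p = 0.00695) in surface fish. At 14 dpi it was called in cave fish, at 2.37 (SE 0.39, adjusted p = 0.00385), while in surface fish the change was 0.75 (SE 0.39, adjusted p = 0.579) and not called. The cave calls held in all 20 fits that left out 1 library and in the fit without the 3 libraries highest in skin markers. The surface call was lost without surface 7 dpi replicate 1 (adjusted p = 0.134). With only the groups compared in the fit, itga6a stayed called in cave fish at 7 dpi. The calls in cave fish at 14 dpi and in surface fish at 7 dpi were lost there, where 0 and 13 of all genes were called. At 1 dpi itga6a was not called, at 0.77 in cave fish and 0.63 in surface fish, but with unscaled TPM both were, at 1.07 (adjusted p = 0.0316) and 0.96 (adjusted p = 0.043).

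ITGA7 encodes alpha7, the main laminin receptor of muscle fibres in mammals and zebrafish. Its median of 18.4 scaled TPM was second among the named integrin alpha chains, after 18.8 for itgam. In cave fish ITGA7 was at 24.4, 31.9 and 22.6 in controls, 28.5, 18.3 and 18.2 at 1 dpi, 25.1 and 31.8 at 7 dpi, and 16.6 and 36.3 at 14 dpi. ITGA7 in surface fish was at 16.3, 18.1 and 10.9 in controls, 23.4, 25.9 and 18.2 at 1 dpi, 18.5 and 14.3 at 7 dpi, and 15.8 and 18.3 at 14 dpi. No comparison on the scaled values called it. Its change in surface fish at 1 dpi was 0.56 (SE 0.27, adjusted p = 0.195), and 1.3 (adjusted p = 0.00761), a call, with unscaled TPM. All 3 cave controls were above all 3 surface controls, a difference of 0.78 (SE 0.27, adjusted p = 0.0954).

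Several integrin chains were highest where skin markers were highest. itga6b, itga6l, itga3a, itgb4 and itgb1b.1 each had the highest values in cave 1 dpi replicate 3, cave control replicate 2 and surface 1 dpi replicate 2. These are the 3 libraries highest in skin markers, and the pattern holds for 1.82% of all genes tested. itga6l reached 1 TPM only in those 3 libraries, and itga3a only there and in surface 1 dpi replicate 3. Passing the filter and peaking there are thus the same fact for itga6l, and nearly so for itga3a. itgb4 encodes the beta chain of hemidesmosomes, which pairs with alpha6. In cave fish itgb4 was at 3.24, 31.5 and 2.41 in controls, 3.06, 5.55 and 75.1 at 1 dpi, 3.47 and 5.38 at 7 dpi, and 2.25 and 2.76 at 14 dpi. itgb4 in surface fish was at 8.03, 10.8 and 11.3 in controls, 14.01, 29.2 and 11.04 at 1 dpi, 5.604 and 5.36 at 7 dpi, and 9.74 and 3.25 at 14 dpi. itga6b was at 3.44, 34.1 and 3.83 in controls, 2.28, 5.09 and 83.7 at 1 dpi, 3.69 and 6.74 at 7 dpi, and 3.22 and 2.96 at 14 dpi in cave fish. itga6b in surface fish was at 6.64, 7.65 and 9.22 in controls, 10.98, 32.8 and 11.5 at 1 dpi, 3.53 and 4.68 at 7 dpi, and 8.12 and 1.86 at 14 dpi. In each of those libraries both genes were higher than in the others of its group. itgb1b.1, a further row named for beta1, was at 0.313, 3.19 and 0.599 in controls, 0.436, 0.580 and 7.84 at 1 dpi, 0.545 and 0.556 at 7 dpi, and 1.03 and 0.875 at 14 dpi in cave fish. itgb1b.1 in surface fish was at 0.248, 2.45 and 1.73 in controls, 1.05, 3.07 and 1.72 at 1 dpi, 1.12 and 1.68 at 7 dpi, and 1.75 and 1.27 at 14 dpi. itga3a, for an alpha3 chain, and itga6l had medians of 0.495 and 0.164 scaled TPM. The skin sum was 610 to 5181 scaled TPM in cave fish at 1 dpi, against 337 to 1383 in cave controls, and 2 of its 10 tested rows rose. Surface fish at 1 dpi had 740 to 1464, against 383 to 566 in surface controls, with 1 of 10 rows up. No skin marker row was at 0 in every library. krt5, a basal keratin, was highest in the same 3 libraries and made up 3732 of the 5181 in cave 1 dpi replicate 3. Rows for dspa, ppl, evpla, epcam and cldn7b were also highest in those 3. Those for krt4, tp63, krt18b and krt8 were not, and krt18b and the abundant krt8 row peaked in the cave 7 dpi libraries. None of the 5 was called in any comparison on the scaled values, although without the 3 skin-rich libraries itgb4 was called between the forms in controls, and the part of skin in their values was not tested.

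**Figure D4:**
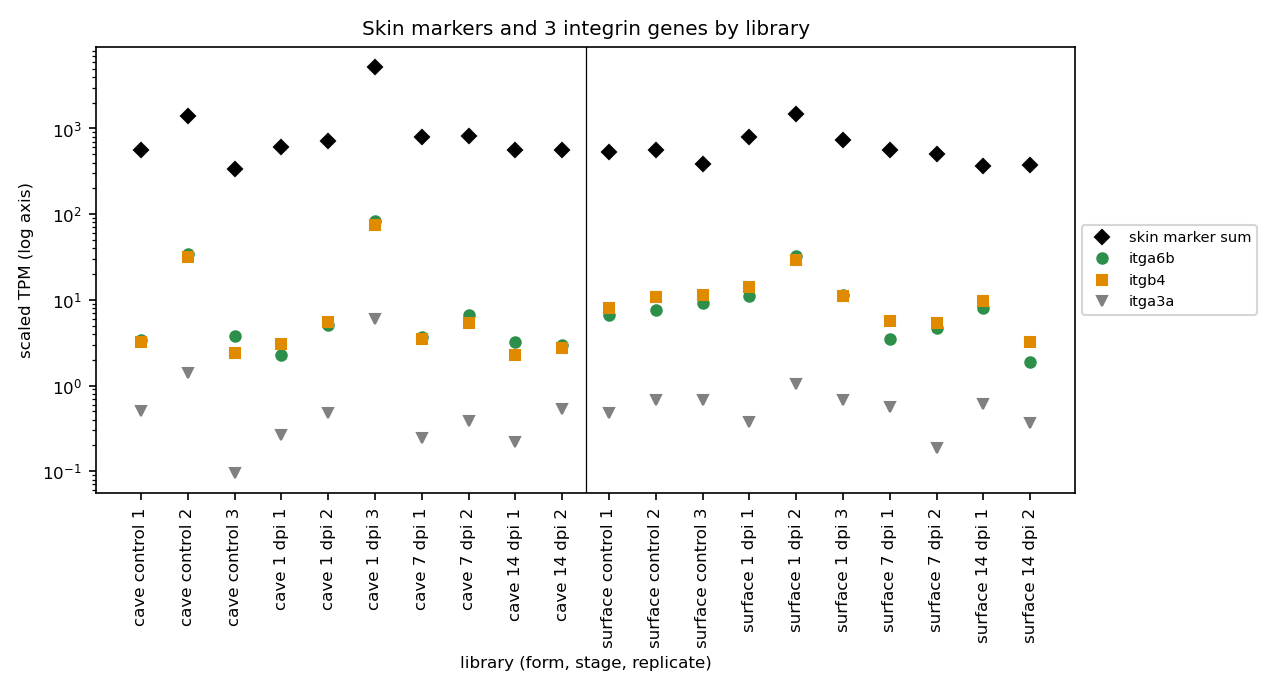
Scaled TPM, on a log axis, of the skin marker sum and of itga6b, itgb4 and itga3a in each library, with cave fish left of the line. itga6b, itgb4 and itga3a peak with the skin sum in cave control 2, cave 1 dpi 3 and surface 1 dpi 2.

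The 2 abundant genes for beta1, the partner of most alpha chains, moved apart at 1 dpi. In cave fish itgb1b was at 27.7, 26.03 and 18.9 in controls, 52.1, 43.1 and 51.8 at 1 dpi, 41.4 and 49.1 at 7 dpi, and 31.8 and 55.3 at 14 dpi. itgb1b in surface fish was at 20.4, 18.9 and 18.2 in controls, 54.4, 58.03 and 39.8 at 1 dpi, 31.5 and 33.6 at 7 dpi, and 14.9 and 27.01 at 14 dpi. The 1 dpi libraries of both forms were all above the controls of their form. itgb1b rose by 1.00 (SE 0.24, adjusted p = 0.00602) in cave fish and 1.34 (SE 0.24, adjusted p = 0.00189) in surface fish, and both calls held in all 20 fits that left out 1 library. At 7 dpi it was not called in cave fish, at 0.89 (SE 0.26, adjusted p = 0.0524), or in surface fish, at 0.74 (SE 0.26, adjusted p = 0.123). The fit of surface controls and surface 1 dpi libraries alone with the replicate block gave an adjusted p of 0.0506.

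Its paralogue itgb1a did not rise. In cave fish itgb1a was at 29.2, 23.5 and 22.3 in controls, 19.7, 22.3 and 19.8 at 1 dpi, 24.1 and 26.00 at 7 dpi, and 17.9 and 29.6 at 14 dpi. itgb1a in surface fish was at 33.1, 25.2 and 27.4 in controls, 21.3, 14.9 and 14.8 at 1 dpi, 21.2 and 19.01 at 7 dpi, and 19.3 and 24.6 at 14 dpi. The surface 1 dpi libraries were below the surface controls, a change of -0.72 (SE 0.20, adjusted p = 0.0211). With unscaled TPM the value was 0.03, so the sign of this change rests on the scaling. The call was also lost without surface control replicate 1 (adjusted p = 0.0839) or surface 1 dpi replicate 2 or 3 (0.083 and 0.0775), without the 3 libraries highest in skin markers (0.114) and in the block fit of those 2 groups (0.0818).

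The ratio of itgb1b to itgb1a does not depend on the scaling. It was 0.948, 1.11 and 0.850 in cave controls, 2.64, 1.94 and 2.62 at 1 dpi, 1.72 and 1.89 at 7 dpi, and 1.78 and 1.87 at 14 dpi. In surface fish it was 0.617, 0.752 and 0.663 in controls, 2.55, 3.90 and 2.68 at 1 dpi, 1.49 and 1.77 at 7 dpi, and 0.772 and 1.10 at 14 dpi. At every injured stage of both forms all libraries were above all controls of that form. RSEM shares reads that match more than 1 gene, so the split of reads between paralogues such as these is uncertain as far as their sequences are alike.

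Of the 4 integrin chains of white blood cells, itgb2, itgam, itgb7 and itgae.2, all rose in cave fish at 1 dpi and itgb2 alone was called in surface fish on the scaled values. With unscaled TPM itgb7, at 1.07 (adjusted p = 0.0199), and itgae.2, at 0.83 (adjusted p = 0.0334), were also called in surface fish at 1 dpi. itgb2 encodes beta2, the common chain of leukocyte integrins. In cave fish itgb2 was at 37.2, 25.7 and 26.1 in controls, 145, 160.2 and 148 at 1 dpi, 70.2 and 73.2 at 7 dpi, and 86.1 and 61.4 at 14 dpi. itgb2 in surface fish was at 25.4, 19.9 and 21.8 in controls, 79.7, 72.9 and 51.8 at 1 dpi, 69.7 and 35.8 at 7 dpi, and 20.8 and 52.6 at 14 dpi. The 3 cave 1 dpi libraries were the highest of all 20, and the surface 1 dpi libraries were all above their controls. itgb2 averaged 151 ± 8.097 scaled TPM in cave fish at 1 dpi and 29.7 ± 6.51 in cave controls, and 68.1 ± 14.5 in surface fish at 1 dpi and 22.3 ± 2.79 in surface controls (SD, n = 3 each). The rise was 2.33 (SE 0.30, adjusted p = 6.43e-05) in cave fish and 1.55 (SE 0.30, adjusted p = 0.00355) in surface fish, and both held in all 20 fits that left out 1 library.

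itgb2 was still called in cave fish at 7 dpi, at 1.27 (SE 0.34, adjusted p = 0.0349), and at 14 dpi, at 1.29 (SE 0.34, adjusted p = 0.0281). In surface fish it was 1.13 (SE 0.34, adjusted p = 0.0676) at 7 dpi and 0.56 (SE 0.34, adjusted p = 0.648) at 14 dpi, neither called. With unscaled TPM the surface 7 dpi value was 1.48 (adjusted p = 0.0318), a call. The cave calls at 7 and 14 dpi were each lost without cave control replicate 2 or 3 or either library of the stage (adjusted p 0.0924 to 0.201 and 0.0554 to 0.166), with unscaled TPM (0.0577 and 0.093) and without the 3 libraries highest in skin markers (0.125 and 0.1). In the block fit of surface controls and surface 1 dpi alone the adjusted p for itgb2 was 0.0504.

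itgam encodes alphaM, which pairs with beta2 on myeloid cells. In cave fish itgam was at 19.6, 10.3 and 11.8 in controls, 45.6, 46.1 and 37.3 at 1 dpi, 18.3 and 18.9 at 7 dpi, and 27.7 and 17.4 at 14 dpi. itgam in surface fish was at 33.1, 15.02 and 16.5 in controls, 19.8, 17.8 and 8.43 at 1 dpi, 26.5 and 13.7 at 7 dpi, and 18.7 and 24.5 at 14 dpi. The cave 1 dpi libraries were again the 3 highest of all, whereas surface 1 dpi and surface control libraries overlapped. itgam rose by 1.61 (SE 0.35, adjusted p = 0.00377) in cave fish, held in all 20 fits that left out 1 library, against a surface value of -0.46 (SE 0.35, adjusted p = 0.436), which was 0.28 with unscaled TPM. itgb7, whose product pairs with alpha4 and alphaE on lymphocytes, was at 3.24, 3.703 and 1.78 in controls, 7.298, 7.11 and 5.63 at 1 dpi, 2.71 and 1.700 at 7 dpi, and 3.69 and 4.07 at 14 dpi in cave fish. itgb7 in surface fish was at 2.85, 2.197 and 0.845 in controls, 2.85, 3.16 and 2.900 at 1 dpi, 2.596 and 0.997 at 7 dpi, and 0.876 and 1.88 at 14 dpi. Its rise at 1 dpi was 1.00 (SE 0.29, adjusted p = 0.0189) in cave fish and 0.49 (SE 0.29, adjusted p = 0.29), not called, in surface fish. itgb2, itgam, itgb7 and itgb3a had their 3 highest values in the 3 cave 1 dpi libraries, as did 5.16% of all genes tested.

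The alpha partners of beta7 moved in the same direction in cave fish at 1 dpi. itgae.2, for an alphaE chain, was at 1.28, 1.48 and 1.07 in controls, 2.83, 2.296 and 5.09 at 1 dpi, 2.72 and 2.19 at 7 dpi, and 1.55 and 3.23 at 14 dpi in cave fish. itgae.2 in surface fish was at 0.715, 0.800 and 1.29 in controls, 1.77, 2.51 and 0.751 at 1 dpi, 2.95 and 2.79 at 7 dpi, and 1.53 and 2.07 at 14 dpi. It rose by 0.91 (SE 0.27, adjusted p = 0.0224) in cave fish, with a surface value of 0.42 (SE 0.27, adjusted p = 0.331). Its surface value at 7 dpi was 1.01 (SE 0.30, adjusted p = 0.0666), and 1.18 (adjusted p = 0.0456), a call, with unscaled TPM. itga4, for the alpha4 chain that binds VCAM1 and fibronectin, was at 5.11, 3.003 and 2.78 in controls, 6.27, 6.87 and 6.06 at 1 dpi, 9.32 and 7.56 at 7 dpi, and 6.68 and 5.03 at 14 dpi in cave fish. itga4 in surface fish was at 3.98, 4.203 and 4.81 in controls, 4.16, 4.56 and 3.59 at 1 dpi, 8.27 and 5.09 at 7 dpi, and 3.74 and 6.96 at 14 dpi. It rose in cave fish by 0.71 (SE 0.22, adjusted p = 0.0301) at 1 dpi and 1.06 (SE 0.25, adjusted p = 0.0207) at 7 dpi, while in surface fish it was -0.06 (SE 0.22, adjusted p = 0.898) and 0.50 (SE 0.25, adjusted p = 0.279), with 0.58 at 1 dpi with unscaled TPM. All cave 1 and 7 dpi libraries were above the cave controls.

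The calls of itgb7, itgae.2 and itga4 were each lost when any 1 of several libraries was left out. The 1 dpi cave call of itgb7 was lost without cave control replicate 3 or cave 1 dpi replicate 1 or 2 (adjusted p 0.0552 to 0.0962), and that of itgae.2 without cave control replicate 1 or 3 or cave 1 dpi replicate 3 (0.056 to 0.113). That of itga4 was lost without cave control replicate 2 or 3 or any cave 1 dpi library (0.0599 to 0.125), and its 7 dpi call without cave control replicate 2 or 3 or either cave 7 dpi library (0.0633 to 0.172) and with unscaled TPM (0.0737). Without the 3 libraries highest in skin markers itgae.2 and itga4 were not called at 1 dpi (0.103 and 0.161), nor itga4 at 7 dpi (0.0917), while itgb7 (0.0374) and itgam (0.0386) were. itga9, of the same family as itga4, was called in no comparison on the scaled values and lay between 5.34 and 15.04 scaled TPM. Its surface change at 1 dpi was 0.49, and 1.21 (adjusted p = 0.0129), a call, with unscaled TPM.

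Leukocyte markers rose with these genes in cave fish at 1 dpi and were mixed in surface fish. In cave fish at 1 dpi 8 of 9 tested marker rows rose and 0 fell, and the list summed to 587 to 690 scaled TPM, against 222 to 419 in cave controls. In surface fish at 1 dpi 3 rose and 1 fell, and the sum was 259.9 to 433, against 356 to 436 in surface controls. lcp1, for the leukocyte actin-bundling protein L-plastin, was at 93.4, 117 and 138 in cave fish at 1 dpi, against 20.8, 12.8 and 12.4 in cave controls. In surface fish it was at 67.7, 64.5 and 52.1 at 1 dpi, against 9.998, 13.5 and 11.7 in controls. Of the 13 rows that matched the list, 1 of 2 rows named LYZ was at 0 in every library. cd74a, for the class II invariant chain, made up most of the sum in controls and was not among the rises. In surface fish cd74a was at 120, 152 and 51.4 at 1 dpi, against 273, 309 and 326 in controls. Its cave values were 93.7, 69.8 and 145 at 1 dpi, against 272, 156 and 139 in controls. In cave fish 1 of 9 rows rose at 7 dpi and 4 at 14 dpi, and 0 fell. The part of leukocyte number in the integrin values was not tested.

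Among the beta chains that pair with alphav and bind RGD sites, itgb3a and itgb3b rose in cave fish at 1 dpi. Beta3 is the fibrinogen receptor chain of platelets and thrombocytes and also serves other cells. In cave fish itgb3a was at 0.900, 2.84 and 0.252 in controls, 3.801, 5.36 and 6.18 at 1 dpi, 1.32 and 0.783 at 7 dpi, and 0.634 and 0.468 at 14 dpi. itgb3a in surface fish was at 0.949, 1.09 and 0.856 in controls, 0.717, 1.26 and 0.876 at 1 dpi, 0.230 and 0.440 at 7 dpi, and 0.607 and 0.227 at 14 dpi. The cave 1 dpi libraries were above all others, and in surface fish 1 dpi and control libraries overlapped. The cave rise was 1.53 (SE 0.30, adjusted p = 0.00167), held in all 20 fits that left out 1 library, and the surface value was -0.02 (SE 0.30, adjusted p = 0.988), or 0.40 with unscaled TPM.

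itgb3b was at 2.13, 2.36 and 1.89 in controls, 3.64, 5.61 and 4.87 at 1 dpi, 2.87 and 3.11 at 7 dpi, and 5.02 and 2.76 at 14 dpi in cave fish. itgb3b in surface fish was at 1.26, 1.93 and 1.301 in controls, 1.64, 2.65 and 2.43 at 1 dpi, 1.78 and 1.77 at 7 dpi, and 0.792 and 1.301 at 14 dpi. Its rise in cave fish at 1 dpi was 0.85 (SE 0.20, adjusted p = 0.00559), also held in all 20 fits, and its surface value was 0.37 (SE 0.20, adjusted p = 0.236), or 0.91 (adjusted p = 0.0203), a call, with unscaled TPM. The gene for alphaIIb, itga2b, the partner of beta3 on thrombocytes, was below the filter. It was at 0.156, 0.0972 and 0.192 in controls, 0.755, 0.837 and 0.440 at 1 dpi, 0.117 and 0.0618 at 7 dpi, and 0.440 and 0.214 at 14 dpi in cave fish. itga2b in surface fish was at 0.292, 0.191 and 0.256 in controls, 0.582, 0.231 and 0.250 at 1 dpi, 0.287 and 0.283 at 7 dpi, and 0.354 and 0.136 at 14 dpi. With no filter it was called in cave fish at 1 dpi. Of 3 tested thrombocyte marker rows 1, f5, rose in cave fish at 1 dpi, and the list summed to 7.00 to 11.9 scaled TPM, against 2.39 to 8.27 in cave controls. f5, for coagulation factor V, was at 5.86, 3.77 and 4.77 at 1 dpi, against 0.0880, 0.651 and 0.0479 in cave controls. For gp1bb, gp9 and mpl the cave 1 dpi and cave control libraries overlapped. No matched row of that list was at 0 throughout, and its part in the beta3 values was not tested.

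Of the remaining RGD-type chains, itgb8, itgb5 and itga5 were each called once on the scaled values. itgb8, whose product activates latent TGF-beta, was at 0.401, 0.719 and 1.23 in controls, 1.84, 2.803 and 1.41 at 1 dpi, 0.886 and 0.958 at 7 dpi, and 0.569 and 1.81 at 14 dpi in cave fish. itgb8 in surface fish was at 0.598, 1.41 and 1.17 in controls, 1.79, 1.66 and 1.35 at 1 dpi, 0.814 and 1.09 at 7 dpi, and 0.657 and 0.741 at 14 dpi. It rose in cave fish at 1 dpi by 0.76 (SE 0.24, adjusted p = 0.0308), a call lost without cave control replicate 1 or 2 or cave 1 dpi replicate 1 or 2 (adjusted p 0.056 to 0.142) and without the 3 libraries highest in skin markers (0.0714). The surface value of itgb8 at 1 dpi was 0.35 (SE 0.24, adjusted p = 0.367), and 0.79 (adjusted p = 0.0384), a call, with unscaled TPM. itgb5 was at 33.8, 19.2 and 22.3 in controls, 13.96, 13.4 and 15.1 at 1 dpi, 23.9 and 17.9 at 7 dpi, and 20.1 and 10.5 at 14 dpi in cave fish. itgb5 in surface fish was at 23.5, 18.9 and 34.2 in controls, 16.4, 13.7 and 8.57 at 1 dpi, 16.03 and 10.9 at 7 dpi, and 23.5 and 16.6 at 14 dpi. The surface 1 dpi libraries were all below the surface controls, a change of -0.94 (SE 0.30, adjusted p = 0.0447) beside a cave value of -0.75 (SE 0.30, adjusted p = 0.0797). It was lost in 10 of 20 fits that left out 1 library (0.0529 to 0.182): surface control replicate 1 or 3, surface 1 dpi replicate 2 or 3, cave control replicate 3, and each cave 1 and 7 dpi library. With unscaled TPM it was -0.20 (adjusted p = 0.605), and without the 3 libraries highest in skin markers the adjusted p was 0.0989. In the block fit of surface controls and surface 1 dpi libraries alone it was 0.203.

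itga5 encodes the alpha chain of the main fibronectin receptor. In cave fish itga5 was at 1.800, 2.64 and 2.74 in controls, 1.36, 1.73 and 1.61 at 1 dpi, 1.36 and 1.32 at 7 dpi, and 0.582 and 1.28 at 14 dpi. itga5 in surface fish was at 1.43, 0.824 and 1.63 in controls, 1.07, 1.24 and 0.876 at 1 dpi, 0.441 and 0.606 at 7 dpi, and 0.624 and 0.711 at 14 dpi. In both forms the libraries at 7 and 14 dpi were below their controls, and the cave change at 14 dpi, -0.83 (SE 0.20, adjusted p = 0.0216), was called. The other values were -0.52 (SE 0.20, adjusted p = 0.121) in cave fish at 7 dpi, and -0.58 (SE 0.20, adjusted p = 0.112) at 7 dpi and -0.44 (SE 0.20, adjusted p = 0.506) at 14 dpi in surface fish. The call was lost without cave control replicate 2 or 3 or cave 14 dpi replicate 1 (adjusted p 0.0584 to 0.171) with unscaled TPM (0.0712) and without the 3 libraries highest in skin markers (0.0787).

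itgav, the shared alpha partner, was at 2.797, 4.95 and 4.01 in controls, 1.99, 2.88 and 3.397 at 1 dpi, 1.94 and 3.75 at 7 dpi, and 2.77 and 6.31 at 14 dpi in cave fish. itgav in surface fish was at 3.21, 3.64 and 3.69 in controls, 1.77, 2.02 and 1.87 at 1 dpi, 3.65 and 2.296 at 7 dpi, and 3.08 and 3.77 at 14 dpi. It was not called, although the surface 1 dpi libraries were all below the surface controls by a difference of -0.64 (SE 0.25, adjusted p = 0.102). It was called there when those 2 groups alone were fitted and with a replicate block over all libraries. itgb6 was at 3.32, 3.18 and 2.08 in controls, 3.18, 1.69 and 3.797 at 1 dpi, 2.39 and 3.15 at 7 dpi, and 3.13 and 4.88 at 14 dpi in cave fish. itgb6 in surface fish was at 1.78, 3.38 and 2.23 in controls, 2.09, 2.66 and 2.25 at 1 dpi, 3.49 and 2.44 at 7 dpi, and 1.500 and 3.405 at 14 dpi. Neither itgb6 nor itga8, which lay between 1.18 and 2.65 scaled TPM, was called in any comparison.

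Of the 5 collagen-binding alpha chains, itga11b fell at 7 dpi in both forms, itga10 fell in cave fish at 1 dpi and the other 3 were not called after injury. itga11b, for an alpha11 chain of fibroblast-type cells, was at 3.66, 4.198 and 4.32 in controls, 3.79, 5.83 and 4.05 at 1 dpi, 1.67 and 2.39 at 7 dpi, and 2.48 and 2.13 at 14 dpi in cave fish. itga11b in surface fish was at 6.36, 9.696 and 6.38 in controls, 6.37, 6.62 and 6.81 at 1 dpi, 1.94 and 3.498 at 7 dpi, and 6.66 and 6.11 at 14 dpi. The 7 dpi libraries of both forms were below the controls of their form. The change was -0.75 (SE 0.22, adjusted p = 0.0482) in cave fish and -1.20 (SE 0.22, adjusted p = 0.00864) in surface fish. The surface call was lost without surface 7 dpi replicate 1 (adjusted p = 0.166). The cave call was lost in 14 of 20 fits that left out 1 library (0.0506 to 0.304), among them every cave control, cave 7 dpi, cave 14 dpi, surface 1 dpi and surface 14 dpi library and cave 1 dpi replicates 1 and 3. With unscaled TPM the values were -0.70 and -0.89, neither called, and without the 3 libraries highest in skin markers the cave adjusted p was 0.134.

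itga10 was at 8.82, 10.7 and 6.66 in controls, 4.19, 5.04 and 4.83 at 1 dpi, 5.598 and 6.58 at 7 dpi, and 6.801 and 6.96 at 14 dpi in cave fish. itga10 in surface fish was at 6.15, 6.38 and 7.13 in controls, 6.29, 5.82 and 4.27 at 1 dpi, 6.81 and 4.57 at 7 dpi, and 9.72 and 4.797 at 14 dpi. The 3 cave 1 dpi libraries were below all cave controls. The change was -0.76 (SE 0.22, adjusted p = 0.0203), or -0.31 (adjusted p = 0.425) with unscaled TPM and -0.63 (adjusted p = 0.159) without the 3 libraries highest in skin markers, and the call was lost without cave control replicate 1 or 2 or cave 1 dpi replicate 1 (adjusted p 0.0568 to 0.0823). itga11a and itga2.2 were called nowhere on the scaled values, with medians of 1.95 and 0.299 scaled TPM over the 20 libraries. The surface change of itga11a at 1 dpi was 0.26, and 0.82 (adjusted p = 0.043), a call, with unscaled TPM.

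itga1, the gene for alpha1, differed between the forms, and no comparison with controls after injury called it. In cave fish itga1 was at 0.900, 1.74 and 2.37 in controls, 0.872, 1.301 and 0.743 at 1 dpi, 1.003 and 2.34 at 7 dpi, and 1.31 and 2.87 at 14 dpi. itga1 in surface fish was at 5.66, 4.19 and 4.01 in controls, 3.43, 3.91 and 2.95 at 1 dpi, 5.28 and 4.28 at 7 dpi, and 4.18 and 6.17 at 14 dpi. Every one of the 10 cave libraries, 0.743 to 2.87 scaled TPM, was below every one of the 10 surface libraries, 2.95 to 6.17, as was the case for 1.43% of all genes tested. The forms overlapped with unscaled TPM, since cave 14 dpi replicate 2, at 2.82 TPM, lay above surface 14 dpi replicate 1, at 2.48 TPM. The difference was -1.10 (SE 0.26, adjusted p = 0.0129) in controls, -1.17 (SE 0.26, adjusted p = 0.00865) at 1 dpi, -1.15 (SE 0.31, adjusted p = 0.0484) at 7 dpi and -1.03 (SE 0.31, adjusted p = 0.0445) at 14 dpi. The call in controls was lost without surface control replicate 1 (adjusted p = 0.0547) or cave control replicate 1 (0.0754). Those at 7 and 14 dpi were each lost in 12 of 20 fits that left out 1 library (0.055 to 0.42 and 0.0502 to 0.284), which at both stages include surface control replicate 2, cave control replicate 2, each surface 1 dpi and surface 7 dpi library, and cave 1 dpi replicates 1 and 2. The other fits are those without surface control replicate 3, cave 1 dpi replicate 3 or cave 7 dpi replicate 1 at 7 dpi, and without either surface 14 dpi library or cave 14 dpi replicate 1 at 14 dpi. With unscaled TPM the calls in controls, at 7 dpi and at 14 dpi were lost (0.0945, 0.0934 and 0.28), and without the 3 libraries highest in skin markers those at 1, 7 and 14 dpi (0.122, 0.0854 and 0.0732).

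In controls limma called 2 of 38, both lower in cave fish, where 8.74% of all genes were called and 4.16% were lower: itga1, and itga11b at -0.72 (SE 0.19, adjusted p = 0.0282). At 1 dpi 6 were called, against 11.6% of all genes, 5 higher (7.05% of all genes) and 1 lower (4.56%) in cave fish. The 5 were itgb3a at 1.64 (SE 0.30, adjusted p = 0.00268), itgam at 1.50 (SE 0.35, adjusted p = 0.0127), itgb3b at 0.81 (SE 0.20, adjusted p = 0.0158), itgb2 at 1.16 (SE 0.30, adjusted p = 0.0221) and itgb7 at 0.95 (SE 0.29, adjusted p = 0.0444). At 7 dpi 1 was called, itga1, against 4.56% of all genes, with 2.01% lower. At 14 dpi 5 were called, against 12.2% of all genes, 3 higher (6.92%) and 2 lower (5.24%) in cave fish: itgb3b at 1.23 (SE 0.24, adjusted p = 0.00546), itga6a at 1.67 (SE 0.43, adjusted p = 0.0217), itgb1b at 1.03 (SE 0.29, adjusted p = 0.0322), itga11b at -1.16 (SE 0.24, adjusted p = 0.00671) and itga1.

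Of the 1 dpi differences itgb3a and itga1 held in all 20 fits that left out 1 library. itgam was lost without surface 1 dpi replicate 3 (adjusted p = 0.0617), itgb3b without surface 1 dpi replicate 1 or cave 1 dpi replicate 2 (0.0707 and 0.0762), itgb2 without surface 1 dpi replicate 3 or cave 1 dpi replicate 2 or 3 (0.0545 to 0.0906), and itgb7 in 12 fits (0.0508 to 0.121), among them all 6 libraries compared. Of leukocyte markers 4 of 9 rows were higher and 0 lower in cave fish at this stage. Without the 3 libraries highest in skin markers the 1 dpi count was 2, itgb3a and itgam, with 777 of all genes called, against 1960 with all libraries. The member count was 3 without surface 1 dpi replicate 3 or cave 1 dpi replicate 2. At 14 dpi the count was 3 without the 3 skin-rich libraries, where itgb1b was lost (0.0557) and 1610 of all genes were called, against 2053. It was 0 without surface 14 dpi replicate 1, and 3 without cave 14 dpi replicate 2, which ended the calls of itga6a (0.199) and itgb1b (0.251). itgb3b was also lost without cave 14 dpi replicate 1 (0.0537). The control count was 1 without surface control replicate 2 or any 1 cave control (itga5, higher in cave fish, without cave control replicate 1, and otherwise itga1), and 4 without either cave 14 dpi library. The difference of itga11b in controls was lost without surface control replicate 2 or any cave control (0.0521 to 0.128). With unscaled TPM 3 members were higher (5.15% of all genes) and 1 lower (3.04%) in cave fish at 1 dpi, where itgb3b (0.85 (adjusted p = 0.0733)) and itgb7 (0.99 (adjusted p = 0.0746)) were not called. At 14 dpi 5 were higher (7.49% of all genes) and 0 lower in cave fish, among them itgb2, at 1.56 (adjusted p = 0.0281), and not itga11b, at -0.73 (adjusted p = 0.177). In controls 1, itgb1bp1, was higher (4.08% of all genes) and 0 lower, and itga11b was at -0.50 (adjusted p = 0.393).

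The test of whether the response itself differed between the forms called 0 of 38 members with limma at each stage. It called 0.113%, 0.0474% and 0.0296% of all genes at 1, 7 and 14 dpi. At an unadjusted limma p under 0.05 there were 4, 0 and 3 members (10.5%, 0% and 7.89%), against 9.69%, 4.79% and 15.7% of all genes. The response of itgam at 1 dpi was larger in cave fish by 2.07 (95% confidence interval 1.01 to 3.13, adjusted p = 0.167). That of itgb3a was larger by 1.55 (95% confidence interval 0.64 to 2.45, adjusted p = 0.233); it was called without cave control replicate 2 and without the 3 libraries highest in skin markers. At 14 dpi the differences were 1.62 (95% confidence interval 0.44 to 2.80, adjusted p = 0.196) for itga6a and 0.89 (95% confidence interval 0.23 to 1.56, adjusted p = 0.203) for itgb3b. For itgb2 at 1 dpi the difference was 0.78 (95% confidence interval -0.13 to 1.69, adjusted p = 0.603). These intervals are wide, and a p above the threshold does not show that the forms responded alike.

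The 2 members that are not receptor or laminin chains differed from each other. itgbl1 was at 22.7, 24.3 and 23.3 in controls, 10.4, 9.099 and 7.705 at 1 dpi, 13.7 and 12.6 at 7 dpi, and 13.9 and 7.88 at 14 dpi in cave fish. itgbl1 in surface fish was at 31.5, 16.7 and 17.4 in controls, 12.2, 7.51 and 4.64 at 1 dpi, 10.7 and 9.399 at 7 dpi, and 22.3 and 14.5 at 14 dpi. The 1 dpi libraries were below the controls of both forms, a change of -1.29 (SE 0.30, adjusted p = 0.00521) in cave fish and -1.35 (SE 0.30, adjusted p = 0.00702) in surface fish, each held in all 20 fits that left out 1 library and called with unscaled TPM. Without the 3 libraries highest in skin markers the cave value was -1.15 (adjusted p = 0.0711), and in the block fit of surface controls and surface 1 dpi libraries alone the adjusted p was 0.0582. The cave fall at 14 dpi, -1.09 (SE 0.33, adjusted p = 0.0495), was lost without those 3 libraries (0.126) and in 14 of the 20 fits (0.0512 to 0.347), namely without any cave control, cave 1 dpi, cave 7 dpi or surface 7 dpi library, cave 14 dpi replicate 2, surface control replicate 2 or 3, or surface 1 dpi replicate 2. Of 7 fibroblast marker rows 4 fell in surface fish at 1 dpi, with a sum of 409 to 1466 scaled TPM, against 1246 to 4588 in surface controls. In cave fish at 1 dpi 0 of 7 were called, with a sum of 931 to 1153, against 1852 to 2400 in cave controls. The rows for col1a1a and col1a2 made up most of the sum in both of these forms and stages. In cave fish col6a1, dcn and lum were also below their controls at 1 dpi, whereas pdgfra and fbln1 overlapped with theirs. The part of fibroblasts in the itgbl1 values was not tested. itgb1bp1 was called in no comparison on the scaled values and lay between 4.55 and 11.7 scaled TPM. With unscaled TPM it was called in cave fish at 1 dpi, at 0.58 (adjusted p = 0.0431), in surface fish at 1 dpi, at 1.31 (adjusted p = 0.000258), and between cave and surface fish in controls, at 0.87 (adjusted p = 0.0167), and at 14 dpi, at 0.85 (adjusted p = 0.0443). The scaled values were 0.10, 0.62, 0.66 and 0.45. It was also called in surface fish at 1 dpi with a replicate block over all libraries.

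Of 31 tested genes for partners of integrins inside the cell, 11 rose and 3 fell in cave fish at 1 dpi, where 15.7% of all genes rose and 9.07% fell. In surface fish at 1 dpi 9 rose and 2 fell, where 8.35% of all genes rose and 6.41% fell. fermt3b, for the kindlin of blood cells, was at 26.0, 24.1 and 24.1 scaled TPM in cave fish at 1 dpi, against 0.773, 0.515 and 1.38 in cave controls. Its change was 3.79 in cave fish and 2.16 in surface fish (adjusted p = 7.74e-06 and 0.0016). fermt3a (2.10 and 1.17), the focal adhesion kinase relative ptk2ba (2.09 and 1.18), flna for filamin (1.43 and 1.19), actn1 for alpha-actinin (0.70 and 1.07) and tln1 for talin (0.81 and 0.82) rose in both forms. With unscaled TPM 14 rose and 0 fell in cave fish and 19 rose and 0 fell in surface fish, where 25.5% and 34.3% of all genes rose. tln2a fell on the scaled values in both, by 1.03 in cave fish (adjusted p = 0.00336) and by 0.80 in surface fish (adjusted p = 0.024), but the unscaled values, -0.55 and -0.08, were not called (adjusted p = 0.192 and 0.847). At 7 dpi 2 rose in cave fish, 6.45% of the list against 5.37% of all genes. In surface fish 0 were called at 7 dpi, against 4.6% of all genes. At 14 dpi 2 rose and 2 fell in cave fish, each 6.45% of the list, against 6.22% and 3.87% of all genes. In surface fish 0 were called at 14 dpi, and 0% of all genes. With unscaled TPM 1 rose and 0 fell in cave fish at each of those stages, where 2.91% and 1.46% of all genes rose.

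Of 28 tested genes for other basement-membrane proteins and the dystroglycan complex, which also ties fibres to laminin, 1 rose and 13 fell in cave fish at 1 dpi, where 15.7% of all genes rose and 9.07% fell. In surface fish at 1 dpi 0 rose and 10 fell, where 8.35% of all genes rose and 6.41% fell. nid1b, for the laminin-binding nidogen, was at 18.1, 18.6 and 17.3 scaled TPM in cave fish at 1 dpi, against 40.2, 56.7 and 36.2 in cave controls, a change of -1.23 (adjusted p = 0.000311), and fell by 1.07 in surface fish (adjusted p = 0.00229). dmd for dystrophin changed by -0.94 and -0.59, and sgca for alpha-sarcoglycan by -1.12 and -0.66, in cave and surface fish. The muscle fibre marker sum at 1 dpi was 100953 to 164622 scaled TPM in cave fish, against 208975 to 335816 in cave controls, with 1 of 9 rows down. In surface fish it was 48297 to 262060, against 335325 to 479916 in surface controls, with 6 of 9 rows down. The part of fibre loss in the values of this list was not tested. With unscaled TPM dmd was at -0.42 and 0.18 and sgca at -0.60 and 0.12 in cave and surface fish, none of them called, and nid1b at -0.73, still called, in cave fish (adjusted p = 0.037) and at -0.31, not called, in surface fish (adjusted p = 0.33). The sign of the calls in this list depends on the scaling. With unscaled TPM 3 rose and 1 fell in cave fish at 1 dpi, where 25.5% of all genes rose and 1.3% fell. In surface fish 6 rose and 0 fell, where 34.3% of all genes rose and 1.13% fell. The median change of the list was -0.52 in cave fish and -0.22 in surface fish, beside 0.04 and 0.02 for all genes. With unscaled TPM the list medians were -0.02 and 0.44, beside 0.40 and 0.57 for all genes. The list thus lay below the median of all genes on both scales. At 7 and 14 dpi none was called in cave fish, against 7.39% and 10.1% of all genes. In surface fish 1, dag1 for dystroglycan, fell at 7 dpi (-1.49, adjusted p = 0.00723, and with unscaled TPM -1.13, adjusted p = 0.0884). That is 3.57% of the list, against 1.49% of all genes. In surface fish at 14 dpi 0 were called, and 0% of all genes.

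Besides itga2b, 5 members were below the filter. With no filter itga3b and lamb2l were called in surface fish at 1 dpi, and lamb2l between the forms in controls and at 14 dpi. lama3, for the alpha3 chain of epithelial laminin, reached 1.27 scaled TPM in cave 1 dpi replicate 3 and 0.748 in cave control replicate 2, and at most 0.445 elsewhere. lama1 reached at most 0.465, itga3b 0.511 and lamb2l 0.278. lamb4 was at 0 in 13 of 20 libraries and at most 0.136.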

How the data were processed

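The libraries were poly(A) RNA of skeletal muscle, prepared with a stranded TruSeq kit and sequenced as single reads, per the labels' protocols. The authors deposited 1 table of TPM per gene and library, made with STAR 2.7.3a and RSEM 1.3.0 per the submitters' processing notes; genome build and annotation: not given in the sources used here. TPM keeps no depth, so precision comes from the spread between libraries alone. TPM was divided by a median-of-ratios factor and tested as log2(scaled TPM + 1) with limma 3.58.1 in R 4.3.3, with 8 group means, 12 residual degrees of freedom and Benjamini-Hochberg adjustment over the 16884 genes that reached 1 TPM in 2 libraries or more. Members, gene lists and tests were chosen with earlier results of these data known. Genes with values in every library are those called in a comparison and a fixed set of common chains. Same-numbered surface control and surface 1 dpi libraries correlated in their deviations from group means (0.108 to 0.235 over 3 pairs), a hint from the data and not from the labels. The matching pairs of cave control and cave 1 dpi libraries were at 0.082, -0.199 and -0.265. The surface comparison at 1 dpi has no block, and the blocked adjusted p stands beside the surface calls of members at 1 dpi. It is not given for the surface calls and counts of integrin partners, basement-membrane genes and cell markers. RefSeq names matched 41 of the 44 members. Values of 1 item are not reported here, though counts of members include it.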

Additional observations from a re-analysis of the deposited data

How the results depend on the processing

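Of 48 calls over all comparisons, 15 held in all 20 fits that left out 1 library and 33 were lost in at least 1. Counts of members called over these fits ran from 5 to 8 in surface fish at 1 dpi, 0 to 4 at 7 dpi and 0 to 0 at 14 dpi. In cave fish they ran from 9 to 16 at 1 dpi, 1 to 6 at 7 dpi and 1 to 7 at 14 dpi. Between cave and surface fish they ran from 1 to 4 in controls, 3 to 6 at 1 dpi, 0 to 1 at 7 dpi and 0 to 7 at 14 dpi, and for the difference in response 0 to 1 at 1 dpi. With a pseudocount of 0.1 the count between the forms was 0 at 7 dpi and 3 at 14 dpi, where 709 and 2067 of all genes were called. With no filter it was 0 at 7 dpi, where 817 of all genes were called. With unscaled TPM the count was 16 in surface fish at 1 dpi, 2 in cave fish at 7 dpi and 2 at 14 dpi, and 1 in controls and 0 at 7 dpi between the forms. Over all genes the same unscaled fit called 5973, 564, 518, 948 and 500 in those comparisons. itgb1a in surface fish at 1 dpi changed sign, to 0.03; the cause was not tested beyond the change of scale. With only the groups compared in the fit, so fewer samples, the count was 4 in surface fish at 1 dpi and 0 at 7 dpi, 3 in cave fish at 7 dpi and 0 at 14 dpi, and 0 in controls, 0 at 7 dpi and 0 at 14 dpi between the forms. Over all genes these fits called 1098 and 13 in surface fish, 1364 and 0 in cave fish, and 592, 215 and 24 between the forms. A replicate block over all libraries gave 4 in surface fish at 7 dpi and 2 in cave fish at 7 dpi, where 594 and 993 of all genes were called. The labels do not say what the replicate number stands for. The median correlation of deviations was 0.0592 over 26 same-numbered pairs within a form and -0.0478 over 48 others. Deviations within a group of 2 libraries mirror each other, so these medians cannot decide whether same-numbered libraries are related. A block over surface controls and surface 1 dpi libraries alone, added after seeing the data, gave 1. Without the 3 libraries highest in skin markers, also added after seeing the data, the count was 8, 2 and 2 in cave fish at 1, 7 and 14 dpi, 2, 0 and 3 between the forms at 1, 7 and 14 dpi, and 1 for the difference in response at 1 dpi. Over all genes that fit called 2448, 573 and 569 in cave fish, 777, 664 and 1610 between the forms, and 24 for the difference in response. Depth is unknown, and groups of 2 or 3 libraries limit what can be called.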

Other observations

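lamb1b stood at 7.73 scaled TPM in surface control replicate 3, against 45.5 and 34.8 in the other surface controls, and its paralogue lamb1a stood at 3.86 in the same library, against 5.47 and 2.99.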
